A study of Danio rerio with 8 samples.

Results

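The enzymes of glycolysis and the tricarboxylic acid (TCA) cycle were followed in osteoclasts, their precursors, osteoblast-derived vesicles and osteoblasts of the fractured zebrafish scale. Members were taken by name. The list held 48 gene symbols, and every Ensembl gene whose symbol equals a listed one, ignoring a final paralog letter, was taken. This gave 49 genes of the 32057 in the files. The name table used here leaves out most paralog letters, so copies that share a symbol are told apart by their Ensembl identifier, and symbols are written in lower case. The listed pgk1, mdh1aa and mdh1ab had no match by this rule.

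RNA was sequenced from fractions of fractured scales, sorted 1 day after the cut. The animals were adult zebrafish, labelled wild type in genotype, that carried both trap:GFP and osterix:mCherry by the study's methods. The 4 fractions were named by the labels as mOC (mature osteoclasts, sorted as GFP-high nucleated cells), pOC (osteoclast precursors, GFP-low and mCherry+ nucleated cells), EV (osteoblast-derived extracellular vesicles, mCherry+ particles with little DNA stain) and OB (osteoblasts, GFP- and mCherry+ nucleated cells). GFP was driven by upstream sequence of the zebrafish trap (acp5a) gene and mCherry by upstream sequence of the medaka osterix gene, so each fraction is a gate on reporter brightness and not a pure cell type. Each fraction had 2 deposited libraries, but the OB files were identical to each other and were counted as 1 library, which leaves 7 distinct libraries and no spread for OB.

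Library depth, recovered from the size of the smallest step in the values, was between 11814593 and 20410175 reads in genes in mOC, EV and OB. In pOC the same step gave 24435509 and 24344418 reads, but fewer low values there were close to whole reads, so these depths are less certain. The 6 osteoclast markers summed to 18469 and 18901 RPM (reads of a gene scaled to the total reads in genes of its library) in mOC, 5630.2 and 6309.9 RPM in pOC, 3916 and 4133 RPM in EV and 3184 RPM in OB. The 10 osteoblast marker genes summed to 3466 and 1689.9 RPM in mOC, 14969 and 15368 RPM in pOC, 11434 and 8028 RPM in EV and 39000.1 RPM in OB. The osteoclast sum was highest in mOC and the osteoblast sum in OB. The fractions between them followed their names less closely, since the osteoblast sum of EV lay below that of pOC, and pOC had more osteoblast than osteoclast marker RPM. The paper proposes that the GFP-low fraction held mainly monocytes and macrophages, and that some of its cells were osteoblasts with GFP+ fragments. The osteoclast markers nfatc1 and mmp9 were at similar levels in pOC and OB, with nfatc1 at 118 and 119 RPM in pOC and 124 RPM in OB, and mmp9 at 926 and 673 RPM in pOC and 901 RPM in OB. Of the osteoblast markers, bglap was at 0 RPM in every library and sp7, the osterix gene, reached only 5.42 RPM in OB. The 4 macrophage markers also moved with the fractions, with 2518 and 1797 RPM in mOC, 2004 and 1496 RPM in pOC, 979 and 1072 RPM in EV and 321 RPM in OB. This sum was mostly reads of lcp1, which reached 2324 RPM, while coro1a stayed at or under 1.6 RPM. The macrophage marker marco had another order, at 21.0 and 20.3 RPM in mOC, 251 and 209.7 RPM in pOC, 104 and 252 RPM in EV and 27.2 RPM in OB, and csf1ra overlapped between mOC and pOC. The 5 pigment cell markers summed to 637 and 446 RPM in mOC, 347 and 343 RPM in pOC, 78.0 and 589 RPM in EV and 9.20 RPM in OB. This sum was mostly reads of gch2 in mOC and pOC, and of pmela in EV replicate 2. The 5 epidermis markers, mostly reads of krt4 and cdh1, summed to 937 and 621 RPM in mOC, 1031 and 931 RPM in pOC, 1417 and 438 RPM in EV and 1475 RPM in OB. The 7 muscle genes summed to at most 13.4 RPM and the 2 red blood cell genes to at most 0.3 RPM. The part of these other cell types in the results below was not tested. In sorted bulk RNA a different mix of cells and a different amount of RNA per cell cannot be told apart.

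Glycolysis splits glucose into pyruvate in the cytosol and yields a little ATP. Lactate dehydrogenase turns pyruvate into lactate, or the pyruvate dehydrogenase complex passes it to the mitochondrion as acetyl-CoA. The TCA cycle then oxidises acetyl-CoA and supplies electrons to the respiratory chain. In mammals, osteoclasts are known for their many mitochondria, and osteoblasts are known to consume much glucose by glycolysis.

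The members as a whole were highest in mOC and lowest in OB. Their summed level was 27104 and 29706 RPM in mOC, 21471 and 20721 RPM in pOC, 18281 and 19092 RPM in EV and 12071 RPM in OB. The sums did not overlap between any of the fractions. Relative to OB, the mean sum was 2.35 times as high in mOC, 1.75 times in pOC and 1.55 times in EV.

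Levels had to reach 1 RPM in at least 2 libraries for a gene to be tested, and 40 members passed. Among them, both mOC libraries stood above every other library for 26, that is 65.0%, against 10.8% of the 14006 genes tested. OB was the lowest library for 24 members, that is 60.0%, against 13.7% of all genes. Both pOC libraries were above every other library for 1 member (hk2), against 4.83% of all genes. Both mOC libraries were below both pOC libraries for 3 members (hk2, eno2 and the pfkp copy ENSDARG00000028000), against 34.4% of all genes. By group mean, mOC was highest for 33 tested members, pOC for 5, EV for 2 and OB for 0. OB was lowest for 32, EV for 6, pOC for 2 and mOC for 0. The same counts over all genes were not made, so these have no background share. OB, a single library, is not averaged as the other group means are.

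**Figure D1:**
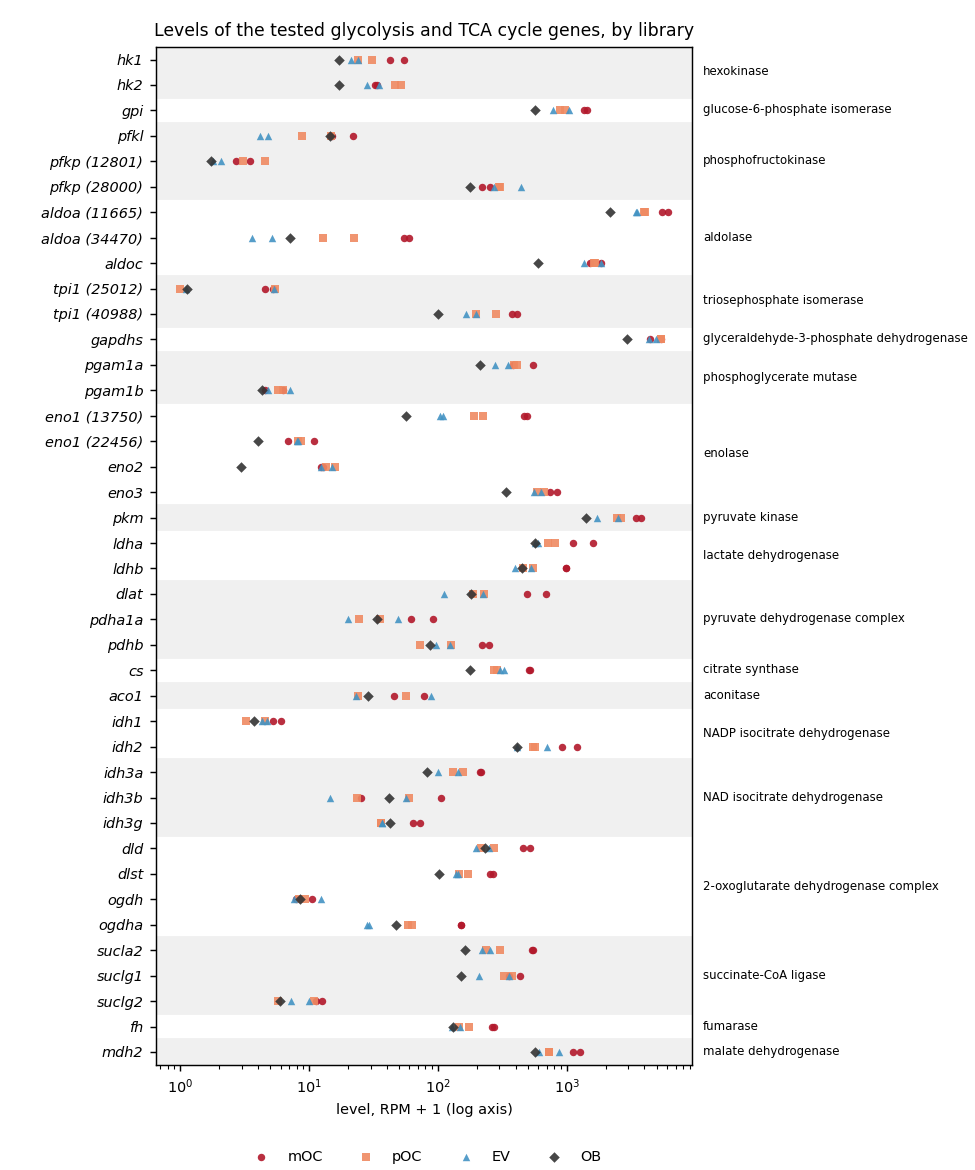
Levels of the 40 tested members in each of the 7 distinct libraries, as RPM + 1 on a log axis, with pathway steps as bands and the final digits of the Ensembl identifier after a symbol shared by copies. Both mOC libraries lie to the right of every other library for 26 members, and OB lies at the left end for 24.

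Of the 9 members that were not tested, the pkm copy ENSDARG00000099860 and both pfkm copies were at 0 RPM in every library. The widely used reference gene gapdh (ENSDARG00000043457) was at or under 0.370 RPM. The second copies of gpi, pfkl and aldoc, together with ldhbb and pdha1b, reached at most 2.63 RPM. At the depths of mOC, EV and OB, 3 reads correspond to between 0.147 and 0.254 RPM. Where copies are nearly identical in sequence, the counting could have split or lost their reads, so a single copy at or near 0 RPM is uncertain.

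The sections of the pathway differed in how the fractions were spaced. Glycolysis members (26 genes) summed to 18968 and 20808 RPM in mOC, 16612 and 16244 RPM in pOC, 14402 and 14425 RPM in EV and 8582 RPM in OB. Relative to OB this is 2.32 times in mOC, 1.91 times in pOC and 1.68 times in EV, so OB stood apart from the other fractions. The 16 TCA members summed to 5014 and 5530.4 RPM in mOC, 3215 and 2924 RPM in pOC, 2557 and 3294 RPM in EV and 2180.2 RPM in OB. Relative to OB this is 2.42 times in mOC but 1.41 times in pOC and 1.34 times in EV, so here mOC stood apart. For the 4 genes of the pyruvate dehydrogenase complex the sums were 1028 and 773 RPM in mOC, 388 and 283 RPM in pOC, 365 and 252 RPM in EV and 296 RPM in OB. Relative to OB that is 3.04 times in mOC, 1.13 times in pOC and 1.04 times in EV. The sums weigh the most abundant genes most, such as aldoa (ENSDARG00000011665) and gapdhs in glycolysis. By step of glycolysis, the mean of mOC over that of pOC ran from 0.81 (phosphofructokinase) to 1.65 (triosephosphate isomerase). By step of the TCA cycle it ran from 1.5 (succinate-CoA ligase) to 1.92 (2-oxoglutarate dehydrogenase complex). In that complex 50.8 to 59.9% of the RPM of a library came from dld (ENSDARG00000008785), whose symbol is ambiguous, as described below. These spacings are descriptions and were not tested against each other.

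**Figure D2:**
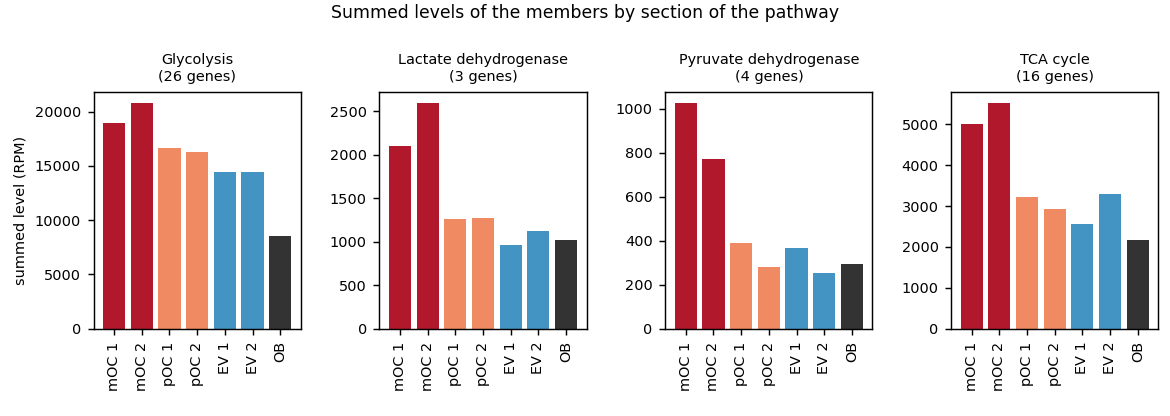
Summed levels in RPM (bars, 1 per library) of the members in glycolysis, lactate dehydrogenase, the pyruvate dehydrogenase complex and the TCA cycle. In glycolysis the mean sum of mOC, pOC and EV is 2.32, 1.91 and 1.68 times that of OB, whereas in the pyruvate dehydrogenase complex pOC and EV lie at 1.13 and 1.04 times OB and mOC at 3.04 times.

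By step, both mOC libraries had the highest sums in 14 of the 19 steps with a member in the files. The exceptions were hexokinase, phosphofructokinase, glyceraldehyde-3-phosphate dehydrogenase, phosphoglycerate mutase and aconitase, of which 4 belong to glycolysis. OB had the lowest sum in 9 of 9 steps of glycolysis and in 5 of 8 steps of the TCA cycle. Sums over other sets of genes were not made, so these counts have no background share. Steps with 1 gene, such as citrate synthase and fumarase, repeat the counts of single members above.

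Fold changes were fitted with limma on log2(RPM + 1), and a member was called when its Benjamini-Hochberg adjusted p, taken over all genes tested, was below 0.05 and its log2 fold change was beyond 1 in size. All p-values below are of this kind unless another tool is named. The spread of OB, a single library, is taken to equal that of the other fractions. The 5 comparisons share libraries and are not independent of each other.

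Mature osteoclasts were first compared with the mean of pOC, EV and OB. Of the 40 members, 13 were higher in mOC, 0 were lower and 27 did not pass. Over all genes, 3.47% were called higher and 6.17% lower. The median log2 fold change of the members was 0.88, against -0.09 for all genes. By section, 4 of 19 tested glycolysis genes, 2 of 2 lactate dehydrogenase genes, 2 of 3 genes of the pyruvate dehydrogenase complex and 5 of 16 TCA genes were called higher. The log2 fold change was above 0 for 39 members, a count that was not made over all genes. The largest increases were those of an aldoa copy (ENSDARG00000034470), at 2.83, and of an eno1 copy (ENSDARG00000013750), at 2.14. Leaving out mOC replicate 1 or 2 left 2 and 1 calls, and leaving out pOC replicate 1 or 2 left 7 and 6.

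Compared with OB alone, 18 members were higher in mOC, 0 lower and 22 did not pass, against 3.14% of all genes called higher and 4.74% called lower. The median log2 fold change was 1.24 over the members and -0.15 over all genes. Each of the 40 members had a log2 fold change above 0. This count was not made over all genes, and the 40 values rest on the same OB library. The called members were 9 of 19 in glycolysis, 2 of 2 in lactate dehydrogenase, 0 of 3 in the pyruvate dehydrogenase complex and 7 of 16 in the TCA cycle. With edgeR on the reads recovered for mOC, EV and OB, the count was 2 members (eno1 ENSDARG00000013750 and tpi1 ENSDARG00000040988). Most of the 18 calls were lost when any 1 of the mOC or pOC replicates was left out. Fewer genes of the whole table were called in these runs too. The members' median was 1.352 and 1.187 without mOC replicate 1 and 2, and 1.239 without either pOC replicate. Over all genes it lay between -0.159 and -0.147. With no filter on low values 12 of the 18 calls held, and those of eno2, ldha, ldhb, idh3a, fh and mdh2 were lost.

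Between mOC and pOC, labelled mature osteoclasts and osteoclast precursors, 3 members were higher in mOC, 0 were lower and 37 did not pass. Over all genes 0.757% were called higher and 3.66% lower. The 3 genes were eno1 (ENSDARG00000013750), ogdha and sucla2. The members had a median log2 fold change of 0.68, against -0.15 over all genes, and 22 of them had an unadjusted p under 0.05, as did 2417 of the 14006 genes. None of the 3 calls held when any 1 of the mOC or pOC replicates was left out, or with no filter on low values. Without pOC replicate 1, no gene of the whole table was called in this comparison, where 1495 genes had an unadjusted p under 0.05. Without EV replicate 1 or 2 the members' median was 0.684 in both runs, against -0.146 over all genes. More members, and more genes of the whole table, were called in these runs than in the main fit.

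In pOC against OB, 2 members were higher (eno1 ENSDARG00000013750 and aldoc ENSDARG00000019702), 0 lower and 38 did not pass, with 1.28% of all genes called higher and 0.114% lower. The median log2 fold change was 0.65 over the members and -0.03 over all genes. In EV against OB, 2 members were higher (aldoc ENSDARG00000019702 and eno2), 0 lower and 38 did not pass, with 2.79% of all genes called higher and 2.26% lower. The median was 0.49 over the members and -0.18 over all genes. Neither pair of calls held when any 1 of the mOC or pOC replicates was left out. Without EV replicate 1 or 2, the members' median in pOC against OB was 0.654 in both runs, against -0.036 over all genes. In EV against OB it was 0.515 and 0.443, against -0.252 and -0.057 over all genes. More genes of the whole table were called in these runs than in the main fit. With edgeR no gene was called in EV against OB, where 2121 genes and 11 members had an unadjusted p under 0.05.

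**Figure D3:**
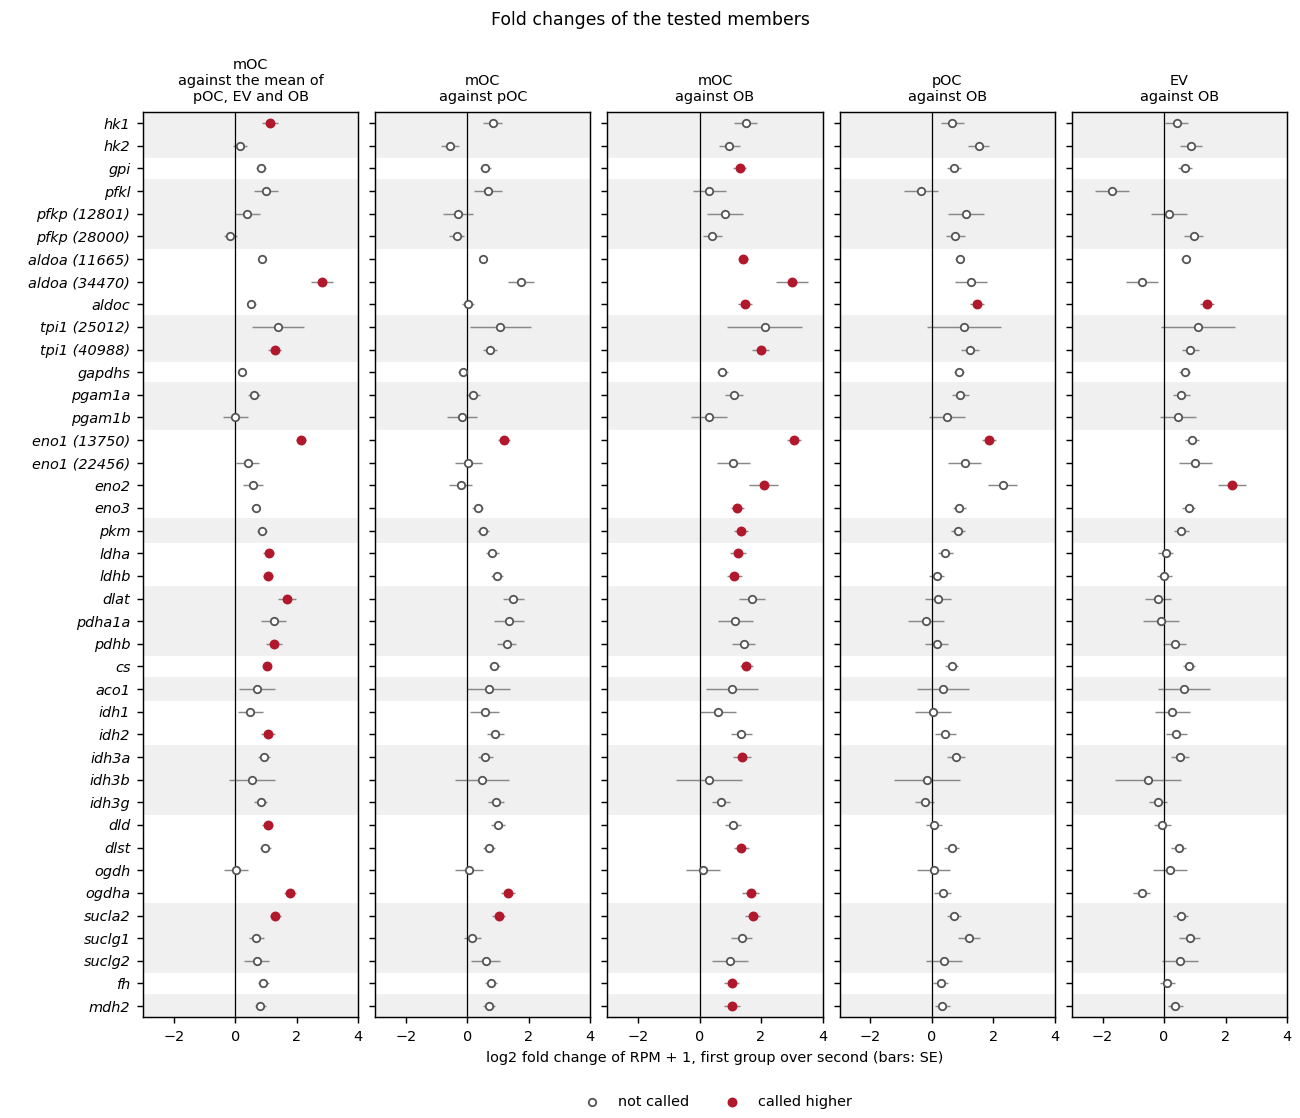
Log2 fold changes of RPM + 1 (points, with SE as bars) of the 40 tested members in the 5 comparisons, the first-named group over the second, with filled points for calls. There are 13, 3, 18, 2 and 2 called members from the left panel to the right, and each lies above 0.

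Glycolysis begins with hexokinase, which traps glucose in the cell as glucose 6-phosphate. Hexokinase 1 (hk1, ENSDARG00000039452) was at 41.5 and 53.3 RPM in mOC, 23.0 and 29.6 RPM in pOC, 23.1 and 20.3 RPM in EV and 16.1 RPM in OB. Both mOC libraries were the highest, and the increase over the mean of the other fractions was called (log2 fold change 1.14, SE 0.26, adjusted p = 0.0369), a call lost with no filter. Hexokinase 2 (hk2, ENSDARG00000101482), in mammals an inducible isozyme of muscle, fat and tumour cells, was at 31.5 and 32.7 RPM in mOC, 45.5 and 50.7 RPM in pOC, 26.9 and 33.7 RPM in EV and 16.0 RPM in OB. It was the only tested member with both pOC libraries on top, but its log2 fold change in mOC against pOC was -0.57 (adjusted p = 0.377, SE 0.28), and 1.53 in pOC against OB (SE 0.34, adjusted p = 0.0993). The ratio of hk2 to hk1 RPM was 0.760 and 0.613 in mOC, 1.98 and 1.72 in pOC, 1.17 and 1.66 in EV and 0.996 in OB. The ratio was lowest in the mOC libraries and highest in the pOC libraries. Whether the ratio differed between fractions was not tested.

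Glucose-6-phosphate isomerase was carried by 1 gpi copy (ENSDARG00000012987), which held at least 99.7% of the step's RPM in each library. It was at 1433 and 1359.5 RPM in mOC, 972 and 890.1 RPM in pOC, 1038 and 786 RPM in EV and 565 RPM in OB. The levels of pOC and EV overlapped, and mOC was above and OB below both. It was called in mOC against OB (log2 fold change 1.30, SE 0.22, adjusted p = 0.0155).

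Phosphofructokinase, the main controlled step of glycolysis, had no called member. The pfkp copy ENSDARG00000028000, which held most reads of the step, was at 219 and 250.3 RPM in mOC, 300.4 and 297 RPM in pOC, 437 and 269 RPM in EV and 176 RPM in OB. Here mOC lay below pOC and EV. The log2 fold change was -0.16 in mOC against the mean of the other fractions (adjusted p = 0.721, SE 0.22), the lowest of the 40 members and the only one under 0. The liver-type gene pfkl (ENSDARG00000060504) was at 21.0 and 14.1 RPM in mOC, 13.7 and 7.85 RPM in pOC, 3.18 and 3.81 RPM in EV and 13.6 RPM in OB. It was lowest in EV, with the lowest log2 fold change of any member in EV against OB, -1.70, which did not pass (adjusted p = 0.128, SE 0.55). The other pfkp copy (ENSDARG00000012801) stayed between 0.740 and 3.57 RPM.

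Aldolase splits fructose 1,6-bisphosphate into the 3-carbon sugars. The aldoa copy ENSDARG00000011665 was at 5439 and 6093 RPM in mOC, 3947 and 4070.5 RPM in pOC, 3469.7 and 3536 RPM in EV and 2148 RPM in OB. The fractions did not overlap, and the increase in mOC over OB was called (log2 fold change 1.42, SE 0.15, adjusted p = 0.00318). In pOC against OB (0.90, SE 0.15) and EV against OB (0.71, SE 0.15), adjusted p was 0.0451 and 0.0469 but the change did not reach 1. The other aldoa copy (ENSDARG00000034470) was at 59.1 and 53.1 RPM in mOC, 21.4 and 11.9 RPM in pOC, 2.60 and 4.11 RPM in EV and 6.09 RPM in OB. It had the largest log2 fold change of the members against the mean of the other fractions (2.83, adjusted p = 0.004, SE 0.36), and was 3.01 in mOC against OB (adjusted p = 0.0165, SE 0.52). Against pOC it was 1.74 and did not pass (adjusted p = 0.0722, SE 0.42).

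The aldoc copy ENSDARG00000019702 followed another order, at 1526 and 1846 RPM in mOC, 1665 and 1633 RPM in pOC, 1371 and 1843 RPM in EV and 599 RPM in OB. The libraries of mOC, pOC and EV overlapped, and OB was below all of them. It was the only member called against OB in each of the other fractions, with log2 fold changes of 1.49 in mOC (adjusted p = 0.0114), 1.46 in pOC (adjusted p = 0.0399) and 1.41 in EV (adjusted p = 0.0259), each with an SE of 0.23. In mOC against pOC it was 0.03 (adjusted p = 0.971, SE 0.19). The pOC call was lost with a pseudocount of 0.1 RPM, with no filter and with TMM scaling.

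Triosephosphate isomerase interconverts the 3-carbon sugars. The tpi1 copy ENSDARG00000040988 was at 410.4 and 374 RPM in mOC, 281 and 195 RPM in pOC, 195 and 164 RPM in EV and 98.4 RPM in OB. Both mOC libraries were on top, and it was called against OB (log2 fold change 1.98, SE 0.29, adjusted p = 0.00871) and against the mean of the other fractions (1.28, adjusted p = 0.00844, SE 0.20). The other tpi1 copy (ENSDARG00000025012) was at 4.25 and 3.55 RPM in mOC, 4.42 and 0 RPM in pOC, 4.36 and 0.1 RPM in EV and 0.130 RPM in OB. Its replicates lay far apart in pOC and in EV, with replicate 1 the higher in both.

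Glyceraldehyde-3-phosphate dehydrogenase, the first step to yield NADH, was read almost wholly through gapdhs (ENSDARG00000039914), in mammals the sperm isozyme. It was at 4401 and 5404 RPM in mOC, 5365 and 5423 RPM in pOC, 4370.2 and 4942 RPM in EV and 2925 RPM in OB. The mOC range overlapped those of pOC and EV, OB was the lowest, and no comparison was called. The log2 fold change in mOC against pOC was -0.14 (adjusted p = 0.723, SE 0.14) and in mOC against OB 0.74 (SE 0.18, adjusted p = 0.0524).

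For phosphoglycerate kinase, which makes the first ATP of the pathway, no listed gene was matched. The gene the table names pgk2 (ENSDARG00000054191), a phosphoglycerate kinase outside the members, was at 2302 and 2749 RPM in mOC, 1855 and 1966 RPM in pOC, 1747 and 1609 RPM in EV and 1142 RPM in OB. It was called in mOC against OB (log2 fold change 1.14, SE 0.18, adjusted p = 0.0125). Most phosphoglycerate mutase reads fell on pgam1a (ENSDARG00000005423), at 383 and 543 RPM in mOC, 409.9 and 389 RPM in pOC, 275 and 349.7 RPM in EV and 209.7 RPM in OB. The mOC and pOC libraries overlapped, and no comparison was called for pgam1a or for pgam1b (ENSDARG00000014068), which lay between 3.28 and 6.09 RPM.

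Enolase, which makes phosphoenolpyruvate, had 4 members, all of them tested. The eno1 copy ENSDARG00000013750 was at 461 and 486 RPM in mOC, 222 and 190.3 RPM in pOC, 108 and 102 RPM in EV and 55.5 RPM in OB. The fractions did not overlap and fell in the order mOC, pOC, EV, OB. It was the only member called in mOC against the mean of the others (log2 fold change 2.14, SE 0.16, adjusted p = 0.000706), against pOC (1.2, SE 0.19, adjusted p = 0.0176) and against OB (3.07, SE 0.23, adjusted p = 0.00131) as well as in pOC against OB (1.87, SE 0.23, adjusted p = 0.0244). In EV against OB it did not pass (0.91, SE 0.23, adjusted p = 0.0726). The call against OB in mOC held under each alternative run.

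Muscle-type enolase eno3 (ENSDARG00000039007) was at 738 and 840.5 RPM in mOC, 665 and 584 RPM in pOC, 551 and 624 RPM in EV and 336 RPM in OB. It was called in mOC against OB, with a smaller log2 fold change than eno1 (1.23, SE 0.21, adjusted p = 0.0158). Neuronal-type enolase eno2 (ENSDARG00000014287) was at 11.7 and 11.3 RPM in mOC, 12.4 and 14.8 RPM in pOC, 14.1 and 11.3 RPM in EV and 1.94 RPM in OB. As with aldoc, OB was below the rest. The EV range overlapped those of mOC and pOC. The log2 fold change was 2.09 in mOC (adjusted p = 0.0392, SE 0.47), 2.31 in pOC, which did not pass (adjusted p = 0.0761, SE 0.47), and 2.21 in EV (SE 0.47, adjusted p = 0.0443), each against OB. Both calls were lost with no filter and with edgeR. The other eno1 copy (ENSDARG00000022456) lay between 3.01 and 9.90 RPM and was not called.

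The ratio of eno1 (ENSDARG00000013750) to eno3 RPM was 0.625 and 0.578 in mOC, 0.333 and 0.326 in pOC, 0.197 and 0.164 in EV and 0.165 in OB. The ratio was highest in mOC and close between EV and OB. The ratio of aldoc (ENSDARG00000019702) to aldoa (ENSDARG00000011665) was 0.281 and 0.303 in mOC, 0.422 and 0.401 in pOC, 0.395 and 0.521 in EV and 0.279 in OB. Here mOC and OB lay below pOC and EV. Ratios between genes also carry their lengths, so only their change between libraries can be read.

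**Figure D4:**
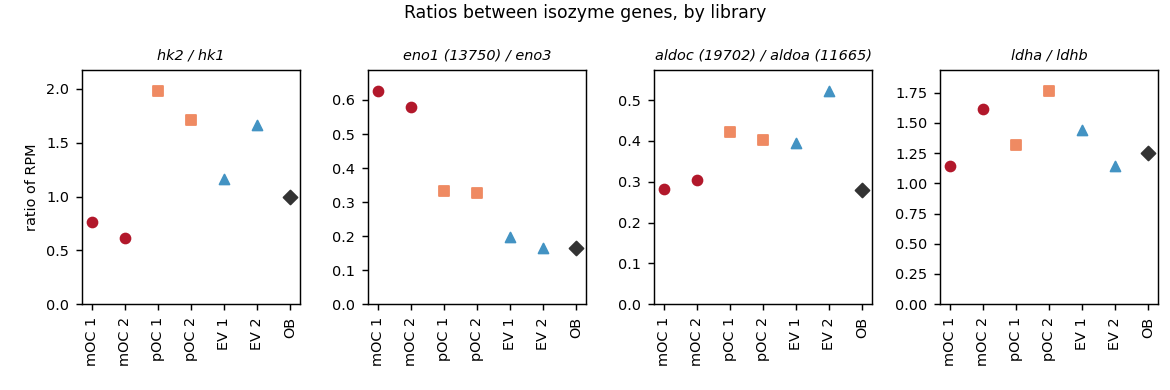
Ratios of RPM between isozyme genes in each library (1 point per library) for hexokinase, enolase, aldolase and lactate dehydrogenase. The hk2 to hk1 ratio is lowest in mOC (0.760 and 0.613) and highest in pOC (1.98 and 1.72), the eno1 to eno3 ratio is highest in mOC (0.625 and 0.578), and the ldha to ldhb ratio overlaps between fractions.

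Pyruvate kinase, which closes glycolysis, was measured through 1 pkm copy (ENSDARG00000099730), at 3776 and 3426 RPM in mOC, 2649 and 2439.7 RPM in pOC, 2499 and 1722 RPM in EV and 1409 RPM in OB. Both mOC libraries were above the rest, and it was called against OB (log2 fold change 1.35, SE 0.24, adjusted p = 0.0178). Against pOC the log2 fold change was 0.50 (adjusted p = 0.245, SE 0.19).

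Lactate dehydrogenase has an A subunit, known for turning pyruvate into lactate, and a B subunit, known for the reverse. The A gene ldha (ENSDARG00000101251) was at 1118 and 1604 RPM in mOC, 714 and 809.9 RPM in pOC, 565 and 599 RPM in EV and 562 RPM in OB. The B gene ldhb (ENSDARG00000019644) was at 976 and 990.5 RPM in mOC, 543 and 460.1 RPM in pOC, 392 and 523 RPM in EV and 449.6 RPM in OB. For both genes mOC was on top with no overlap, and EV and OB differed little. Against the mean of the other fractions the log2 fold change was 1.09 for ldha (adjusted p = 0.00964, SE 0.18) and 1.07 for ldhb (SE 0.17, adjusted p = 0.00845). Against OB it was 1.25 for ldha (adjusted p = 0.0277, SE 0.25) and 1.13 for ldhb (SE 0.24, adjusted p = 0.0334). Against pOC, ldhb had an adjusted p of 0.0411 but a log2 fold change of 0.98, just under the threshold, and ldha was at 0.82 (adjusted p = 0.0811). The ratio of ldha to ldhb was 1.15 and 1.62 in mOC, 1.31 and 1.76 in pOC, 1.44 and 1.15 in EV and 1.25 in OB, so it overlapped between the fractions.

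The pyruvate dehydrogenase complex joins pyruvate to the TCA cycle. Its E2 core gene dlat (ENSDARG00000015918) was at 691 and 492 RPM in mOC, 228 and 187 RPM in pOC, 222 and 110.4 RPM in EV and 179 RPM in OB. The E1 beta gene pdhb (ENSDARG00000021346) was at 246 and 219.7 RPM in mOC, 126 and 71.9 RPM in pOC, 95.0 and 123 RPM in EV and 85.0 RPM in OB. For the E1 alpha gene pdha1a (ENSDARG00000012387), levels were 90.1 and 61.2 RPM in mOC, 34.7 and 23.4 RPM in pOC, 48.1 and 19.0 RPM in EV and 32.6 RPM in OB. In all 3 genes both mOC libraries were above the rest, and pOC and EV overlapped. OB lay within the range of EV for dlat, of pOC for pdhb and of both for pdha1a. Against the mean of the other fractions, dlat (log2 fold change 1.70, SE 0.30, adjusted p = 0.0138) and pdhb (1.27, SE 0.26, adjusted p = 0.0238) were called, and pdha1a was not (1.26, SE 0.40, adjusted p = 0.104). Against pOC their log2 fold changes were 1.49, 1.28 and 1.35 in the order dlat, pdhb, pdha1a, and none passed. Both calls were lost with no filter on low values.

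Citrate synthase (cs, ENSDARG00000103364), the entry to the TCA cycle, was at 505 and 513 RPM in mOC, 284 and 269 RPM in pOC, 325 and 300.3 RPM in EV and 177 RPM in OB. The mOC replicates were close, at 509 ± 6.01 RPM (SD, n = 2), and the fractions did not overlap. It was called against the mean of the others (log2 fold change 1.03, SE 0.14, adjusted p = 0.00526) and against OB (1.52, SE 0.20, adjusted p = 0.00676). Against pOC the adjusted p was 0.0336, but the change of 0.88 was under the threshold.

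The listed aconitase gene, aco1 (ENSDARG00000026376), codes for the cytosolic enzyme, known in mammals also as an iron-sensing RNA-binding protein. Its levels were 77.2 and 44.4 RPM in mOC, 55.4 and 23.1 RPM in pOC, 87.9 and 22.1 RPM in EV and 27.8 RPM in OB. In each fraction with replicates, replicate 1 was above replicate 2, and no comparison was called.

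Isocitrate dehydrogenase exists as the NAD-linked enzyme of the cycle (idh3a, idh3b and idh3g) and as NADP-linked enzymes (idh2 in the mitochondrion, idh1 in the cytosol). The catalytic subunit gene idh3a (ENSDARG00000030278) was at 211 and 216 RPM in mOC, 156 and 129 RPM in pOC, 141 and 98.6 RPM in EV and 81.6 RPM in OB. It was called in mOC against OB (log2 fold change 1.38, SE 0.30, adjusted p = 0.0352). The subunit gene idh3g (ENSDARG00000023648) was at 71.8 and 63.1 RPM in mOC, 34.8 and 35.0 RPM in pOC, 35.7 and 35.9 RPM in EV and 41.2 RPM in OB. Both mOC libraries were the highest, and its log2 fold change against the mean of the others was 0.84, under the threshold of 1 (adjusted p = 0.0495, SE 0.21). The subunit gene idh3b (ENSDARG00000044753) was at 24.2 and 105 RPM in mOC, 22.5 and 58.4 RPM in pOC, 13.5 and 55.7 RPM in EV and 40.6 RPM in OB. In each fraction with replicates, replicate 2 was the higher, and no comparison was called.

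The mitochondrial NADP-linked gene idh2 (ENSDARG00000003795) was at 916 and 1199 RPM in mOC, 566 and 548 RPM in pOC, 410.5 and 705 RPM in EV and 409.8 RPM in OB. It was called against the mean of the others (log2 fold change 1.07, SE 0.23, adjusted p = 0.0301), a call lost with no filter on low values. The cytosolic idh1 (ENSDARG00000025375) lay between 2.26 and 5.08 RPM and was not called.

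Of the 16 TCA members, the largest log2 fold change in mOC against the mean of the others was in the 2-oxoglutarate dehydrogenase complex, which makes succinyl-CoA. Its E1 gene ogdha (ENSDARG00000034270) was at 149 and 151 RPM in mOC, 61.6 and 57.2 RPM in pOC, 28.1 and 27.3 RPM in EV and 46.5 RPM in OB. The fractions did not overlap, and EV was the lowest here, below OB. The log2 fold change in mOC was 1.80 against the mean of the others (adjusted p = 0.00209, SE 0.19), 1.32 against pOC (SE 0.23, adjusted p = 0.023) and 1.67 against OB (SE 0.28, adjusted p = 0.0142). In EV against OB it was -0.72 and did not pass (adjusted p = 0.187, SE 0.28). The E2 gene dlst (ENSDARG00000014230) was at 251 and 266 RPM in mOC, 170.5 and 143 RPM in pOC, 137 and 142 RPM in EV and 100.01 RPM in OB, and was called against OB (1.36, SE 0.24, adjusted p = 0.0173). A further E1 copy, ogdh (ENSDARG00000103428), was between 6.57 and 11.3 RPM, with no order between the fractions.

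The table names ENSDARG00000008785 by the symbol of dihydrolipoamide dehydrogenase, the E3 enzyme shared by the pyruvate and 2-oxoglutarate complexes (dld). In zebrafish the same letters in lower case also denote a Delta ligand gene, and the symbol alone does not tell them apart. It was at 514 and 457 RPM in mOC, 273 and 216 RPM in pOC, 196 and 250.2 RPM in EV and 230.0 RPM in OB. Both mOC libraries were on top with the rest overlapping, and it was called against the mean of the others (log2 fold change 1.06, SE 0.18, adjusted p = 0.0125). Against pOC its log2 fold change lay just under 1 and it was not called.

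Succinate-CoA ligase makes ATP or GTP directly, depending on its beta subunit. The ATP-forming beta subunit gene sucla2 (ENSDARG00000005359) was at 543 and 531 RPM in mOC, 301 and 235 RPM in pOC, 219 and 253 RPM in EV and 161 RPM in OB. It was called in mOC against the mean of the others (log2 fold change 1.31, SE 0.17, adjusted p = 0.00409), against pOC (1.01, SE 0.20, adjusted p = 0.0372) and against OB (1.73, SE 0.24, adjusted p = 0.00781). Its partner, the shared alpha subunit gene suclg1 (ENSDARG00000052712), did not follow it between mOC and pOC, at 352 and 432 RPM in mOC, 376 and 326 RPM in pOC, 206 and 355 RPM in EV and 151 RPM in OB. The mOC and pOC libraries overlapped, and the log2 fold change between them was 0.16 (adjusted p = 0.866, SE 0.28). As with sucla2, OB was the lowest, but mOC against OB did not pass (1.36, SE 0.35, adjusted p = 0.0609). The ratio of sucla2 to suclg1 was 1.54 and 1.23 in mOC, 0.799 and 0.721 in pOC, 1.07 and 0.713 in EV and 1.07 in OB. The GTP-forming beta subunit gene suclg2 (ENSDARG00000044914) lay between 4.68 and 11.5 RPM and was not called.

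Fumarase (fh, ENSDARG00000075132) was at 264 and 272 RPM in mOC, 172 and 145 RPM in pOC, 128 and 148 RPM in EV and 129 RPM in OB. Mitochondrial malate dehydrogenase (mdh2, ENSDARG00000043371) was at 1112 and 1259 RPM in mOC, 721 and 724 RPM in pOC, 612 and 876 RPM in EV and 569 RPM in OB. Both genes had mOC on top without overlap. In mOC against OB both were called close to the thresholds, with log2 fold changes of 1.04 for fh (SE 0.24, adjusted p = 0.0464) and 1.05 for mdh2 (SE 0.25, adjusted p = 0.0489), and both calls were lost with a pseudocount of 0.1 RPM. For the cytosolic enzyme no listed gene was matched. The gene the table names mdh1 (ENSDARG00000017772), outside the members, was at 1244 and 1451 RPM in mOC, 1498 and 1329 RPM in pOC, 776 and 1268 RPM in EV and 501 RPM in OB. There mOC and pOC overlapped, and the log2 fold change between them was -0.07 (adjusted p = 0.938, SE 0.24), while mOC against OB was called (1.42, SE 0.30, adjusted p = 0.0322).

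Other genes of the same pathways were counted by list. In mOC against the mean of the others, 3.47% of all genes were called higher and 6.17% lower. The counts of the lists were not tested against these shares. Of 22 tested TCA and pyruvate genes outside the members, 4 were higher in mOC than in the mean of the others, 0 lower and 18 did not pass, with a median log2 fold change of 0.76. The 4 were sdha (ENSDARG00000016721) and sdhb, subunits of succinate dehydrogenase, pdhx, a binding protein of the pyruvate dehydrogenase complex, and mpc2, a subunit of the mitochondrial pyruvate carrier. The gene sdhb (ENSDARG00000075768) was at 559 and 781 RPM in mOC, 387 and 375 RPM in pOC, 312 and 354 RPM in EV and 237 RPM in OB. The gene pdhx (ENSDARG00000051756) was at 169 and 150.2 RPM in mOC, 64.4 and 65.1 RPM in pOC, 74.3 and 59.5 RPM in EV and 50.1 RPM in OB. Both sat highest in mOC without overlap, with log2 fold changes against the mean of the others of 1.09 for sdhb (SE 0.18, adjusted p = 0.0102) and 1.39 for pdhx (SE 0.20, adjusted p = 0.00579). The gene mpc2 (ENSDARG00000024478) was at 94.4 and 97.8 RPM in mOC, 48.1 and 35.7 RPM in pOC, 29.1 and 35.1 RPM in EV and 23.8 RPM in OB (log2 fold change 1.57, SE 0.23, adjusted p = 0.00712).

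The cytosolic malic enzyme gene me1 (ENSDARG00000053215), which makes pyruvate and NADPH from malate, went another way. It was at 14.1 and 13.1 RPM in mOC, 52.9 and 31.5 RPM in pOC, 59.7 and 49.5 RPM in EV and 2.81 RPM in OB. Both pOC and EV were above mOC, and all were above OB. It was called higher in mOC than in OB (log2 fold change 1.94, SE 0.44, adjusted p = 0.0413), as were the 4 genes above. It was the only gene of its list called against OB in pOC (log2 fold change 3.46, SE 0.44, adjusted p = 0.0244) and in EV (3.86, SE 0.44, adjusted p = 0.0116).

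For the glycolysis genes outside the members, the shares of all genes to set beside the counts are again 3.47% higher and 6.17% lower. Among the 10 tested, 0 were higher in mOC than in the mean of the others, 1 was lower and 9 did not pass, with a median log2 fold change of -0.09. Those called in any comparison, beside pgk2, were genes of the bifunctional enzymes that set fructose 2,6-bisphosphate, the activator of phosphofructokinase. The gene pfkfb4a (ENSDARG00000055540) was at 7.80 and 5.84 RPM in mOC, 28.1 and 21.1 RPM in pOC, 47.5 and 76.3 RPM in EV and 9.30 RPM in OB. It was lower in mOC than in the mean of the others (log2 fold change -1.70, SE 0.32, adjusted p = 0.0187) and higher in EV than in OB (2.57, SE 0.47, adjusted p = 0.0307). The gene pfkfb3 (ENSDARG00000001953) was at 129 and 165 RPM in mOC, 281 and 256 RPM in pOC, 369 and 309 RPM in EV and 145 RPM in OB, and was higher in EV than in OB (1.22, SE 0.26, adjusted p = 0.0462). Both genes, like the pfkp copy ENSDARG00000028000, were lower in both mOC libraries than in both pOC libraries, an order shared by 34.4% of all genes tested. The other tested genes of these bifunctional enzymes overlapped between mOC and pOC.

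Of 11 tested glucose and lactate transport genes, 1 was higher in mOC than in the mean of the others, 2 were lower and 8 did not pass. The median log2 fold change of the 11 was 0.73. Over all genes, 3.47% were called higher and 6.17% lower. The glucose transporter family gene slc2a6 (ENSDARG00000058731) was at 7.57 and 3.72 RPM in mOC, 129 and 110.3 RPM in pOC, 85.2 and 65.5 RPM in EV and 37.2 RPM in OB. It was the only gene of its list called in mOC against pOC, where its log2 fold change was -4.24 (adjusted p = 0.00236, SE 0.36). The related slc2a10 (ENSDARG00000090820) was at 0.85 RPM in both libraries of mOC, 7.04 and 4.85 RPM in pOC, 2.50 and 3.37 RPM in EV and 14.9 RPM in OB, and was lower in mOC (-2.03 against the mean of the others, SE 0.40, adjusted p = 0.0214). In contrast, slc2a11b (ENSDARG00000063288) was at 32.8 and 24.9 RPM in mOC, 14.2 and 18.9 RPM in pOC, 1.37 and 2.43 RPM in EV and 0.2 RPM in OB, and was called higher in mOC (2.92, SE 0.38, adjusted p = 0.00413). The pigment cell marker gch2 had a similar order, with 596 and 406 RPM in mOC, 326 and 309 RPM in pOC, 42.2 and 63.3 RPM in EV and 0.940 RPM in OB. So did pnp4a, at 23.3 and 36.5 RPM in mOC and 0.330 RPM in OB. The other pigment cell markers had other orders. The highest levels of pmela were in EV (31.3 and 509 RPM), that of dct in EV replicate 2 (13.3 RPM) and that of ltk in OB (5.49 RPM). The part of pigment cells was not tested. The slc2a1 copy that was detected (ENSDARG00000007412) lay between 0.690 and 10.4 RPM.

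**Figure D5:**
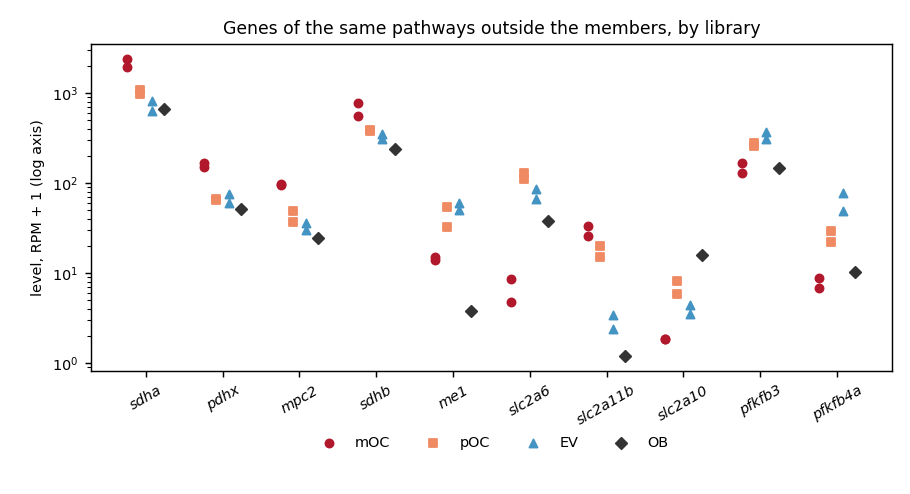
Levels of 10 genes of the same pathways outside the members, as RPM + 1 on a log axis, in each library, chosen among those called in a comparison. The genes sdha, pdhx, mpc2, sdhb and slc2a11b are highest in mOC, whereas me1, slc2a6, slc2a10, pfkfb3 and pfkfb4a are lower in mOC than in pOC.

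Of 17 tested genes of the hypoxia response, 1 was higher in mOC than in the mean of the others (hif1aa), 0 lower and 16 did not pass, with a median log2 fold change of -0.16. Over all genes, 3.47% were called higher and 6.17% lower. The gene hif1a (ENSDARG00000034293), which codes for an oxygen-regulated factor, was at 603 and 439 RPM in mOC, 469 and 425 RPM in pOC, 787 and 597 RPM in EV and 339 RPM in OB. In another order, hif1aa (ENSDARG00000006181) was at 22.1 and 15.0 RPM in mOC, 3.56 and 3.86 RPM in pOC, 0.2 and 0 RPM in EV and 2.94 RPM in OB. The stress-responsive ndrg1 copy ENSDARG00000032849 was at 2492 and 2688 RPM in mOC, 2891 and 3152 RPM in pOC, 7108 and 4187 RPM in EV and 1055 RPM in OB. It was highest in EV and was the only gene of its list called there against OB (log2 fold change 2.37, SE 0.29, adjusted p = 0.0132). In mOC against OB it was called higher as well (1.29, SE 0.29, adjusted p = 0.0425), and hif1al (ENSDARG00000100826) was called lower (-1.26, SE 0.24, adjusted p = 0.0212). The levels of hif1al were 82.1 and 84.2 RPM in mOC, 107 and 109 RPM in pOC, 149.7 and 149.8 RPM in EV and 200.4 RPM in OB, with no overlap between the fractions. Of the 5 tested genes of the pentose phosphate pathway and the 2 of gluconeogenesis, 0 were called by limma in any of the 5 comparisons, and 1 of them (rpia) had an unadjusted p under 0.05 in 1 comparison.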

How the data were processed

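Amplified cDNA (Quartz-Seq) of the sorted fractions was sequenced. The submitters' processing notes name HISAT2 2.1.0, Subread 1.6.4 and the zebrafish build GRCz11. The deposited values are RPM per gene (reads scaled to the library's total in genes by the authors), not divided by gene length, so where the RPM of genes are summed, divided or set beside each other they compare reads, not transcripts. Strand use in counting is not given in the sources used here. Both OB files were identical and were merged, and replicates are given by the study as biological.

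The 14006 genes that reached 1 RPM in 2 or more distinct libraries were tested with limma 3.58.1 (R 4.3.3; trend, robust) on log2(RPM + 1), over all 7 libraries in 1 model with 3 residual degrees of freedom. A fold change on this scale understates the change of low genes. The call rule was an adjusted p below 0.05 with a log2 fold change beyond 1 in size. The scripts were tested on simulated data. Low values lay within 0.1 read of a whole number for at least 92.9% of genes in mOC, EV and OB, so edgeR 4.0.16 was run on those recovered reads as an alternative. In pOC the share was 82.7 to 83.9%, and pOC was left out of it.

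Symbols came from a table of Ensembl identifiers that named 28988 of the 32057 genes. Full statistics are given for members called in any of the 5 comparisons, and for a step with no call its member of highest mean RPM is described by its levels. At most 4 called genes per outside list, those of smallest p, are named. The genes me1, mdh1, slc2a1, hif1a, rpia and gch2, with the other pigment cell markers, were named outside this rule, after their values were seen. The members and lists were chosen with earlier results of these data known. No reference sequence was used here, so no coordinates are printed.

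The alternatives were a pseudocount of 0.1 RPM, no filter, TMM scaling, a replicate block, edgeR and leaving out each replicate.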

Additional observations from a re-analysis of the deposited data

How the results depend on the processing

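No member was called lower in any comparison under any alternative run, and no called fold change of a named member reversed. With mOC set against the mean of pOC, EV and OB, the 13 calls became 9 to 18 under the other settings that kept every library, and 1 to 14 when 1 replicate was left out. For mOC against pOC, the 3 calls became 0 with no filter and 7 with TMM scaling, and 0 to 7 when a replicate was left out. For mOC against OB, the 18 calls became 2 with edgeR, and 2 to 26 when a replicate was left out. For pOC against OB, the 2 calls became 1 with a pseudocount of 0.1 RPM, 1 with no filter and 1 with TMM scaling, and 0 to 6 when a replicate was left out. For EV against OB, the 2 calls became 1 with no filter, 1 with the replicate block and 0 with edgeR, and 0 to 3 when a replicate was left out. The calls over all genes also fell without an mOC or pOC replicate and rose without an EV replicate. The cause of these changes was not tested, except that no filter tested 23793 genes and edgeR used 5 libraries with 2 residual degrees of freedom. TMM scaling moved the median log2 fold change of all genes to -0.03 in mOC against pOC and to 0.00 in mOC against OB, from -0.15 in both, and the members' medians moved with it to 0.83 and 1.43. Over all genes in mOC against OB, limma called 440 higher and 664 lower, and edgeR 88 and 158.

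The replicate numbers of mOC, pOC and EV are shared in the labels. The correlations of the difference between replicate 2 and replicate 1 were 0.172 for mOC with pOC, 0.070 for mOC with EV and 0.070 for pOC with EV, so the numbers were not taken as pairs. With the replicate block the called members were 14, 4, 20, 2 and 1 in mOC against the mean of the others, mOC against pOC, mOC against OB, pOC against OB and EV against OB. These include 13, 3, 16, 2 and 1 of the 13, 3, 18, 2 and 2 calls made without the block, so the block removed the calls of eno2 and fh in mOC against OB and of eno2 in EV against OB.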
